A study of Mus musculus with 8 samples.

Results

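Mitochondrial ribosomal protein genes were taken as the gene symbols made of Mrpl or Mrps followed by a number and at most 1 letter. The rule found 78 genes among the 19805 symbols of the series, 49 of them Mrpl genes, named for the large subunit, and 29 Mrps genes, named for the small subunit. All 78 were present in both deposited count tables and passed the low-count filter in both, and they lie on 17 chromosomes. The series measured bulk RNA of 2 cell types from wild-type (WT) mice, namely CD8 T cells from spleen and group 2 innate lymphoid cells (ILC2s, lymphocytes of tissues that lack antigen receptors and secrete type 2 cytokines) from lung. The libraries labelled co-cultured came from cells kept together for 3 days at a ratio of 5:1 and then separated by flow cytometry, and the libraries labelled alone (treatment label Untreated) came from each cell type cultured by itself. Each of the 4 groups had 2 libraries, and the labels give no strain, sex or age and do not say whether replicates were separate cultures or animals. The p-values therefore speak only of the spread between these libraries, and that spread may be technical.

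The mitochondrial ribosome, or mitoribosome, translates the few mRNAs of the mitochondrial genome, which encode core subunits of the respiratory chain and the ATP synthase. Its 2 rRNAs are encoded by mitochondrial DNA, whereas all its proteins are encoded in the nucleus, made on cytosolic ribosomes and imported. The small subunit binds the mRNA and decodes it, and the large subunit forms the peptide bond and passes the new chain through an exit tunnel to the inner membrane. Many of the proteins have counterparts in bacterial ribosomes, and the rest are specific to mitochondria. Lymphocytes that become activated are known to expand mitochondrial translation together with the respiratory chain. Some symbols mislead as to place: Mrps30 and Mrps18a encode proteins that sit in the large subunit, and Mrps36 encodes a subunit of the 2-oxoglutarate dehydrogenase complex and no ribosomal protein.

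Total counts ran from 48072595 to 67076905 reads per library, and the lowest count of any member in any library was 130, so each level rests on many reads. The ILC2 libraries labelled alone stood apart in their markers. CD8 T cell markers (14 of 14 in the table) summed to 448 and 536 CPM (read counts scaled to a library total of 1e6) in the ILC2 libraries labelled co-cultured, against 2221 and 2090 CPM in those labelled alone. Of these 14 markers, 13 were called lower and 1, Zap70, higher. Zap70 had 160 and 197 CPM in co-cultured ILC2 libraries, against 63.2 and 54.1 CPM alone. Fibroblast and stroma markers (10 of 13 in the table, without Col3a1, Pdgfra and Postn) summed to 120 and 124 CPM in co-cultured ILC2 libraries. In those labelled alone they summed to 9487 and 10190 CPM. Most of the co-cultured sum was Lum, with 105 and 110 CPM co-cultured, against 61.0 and 71.7 CPM alone. Lum was the 1 marker of these 10 called higher, and the other 9 were called lower. Macrophage markers (7 of 14, without Mrc1, C1qa, C1qb, C1qc, Fcgr1, Marco and Itgam) summed to 20.1 and 24.4 CPM in co-cultured ILC2 libraries, against 347 and 356 CPM alone. NK cell markers (4 of 7) summed to 9.90 and 9.09 CPM co-cultured, against 186 and 160 CPM alone. Granulocyte and mast cell markers (4 of 8) summed to 49.4 and 45.45 CPM co-cultured, against 202.5 and 167 CPM alone. Sums of epithelium and endothelium, B cell and dendritic cell markers were also lower co-cultured. The sum of red cell and platelet markers was higher. ILC2 markers (21 of 22, without Ptgdr2) summed to 13560 and 13400 CPM co-cultured, against 5546 and 5522 CPM alone. Both ILC2 libraries labelled alone were alike in this, so no ILC2 comparison without them can be made, and the part of these markers in the ILC2 values below was not tested. In the CD8 T cell libraries the ILC2 markers (17 of 22, without Klrg1, Il13, Il17rb, Ptgdr2 and Tph1) summed to 1638 and 1732 CPM co-cultured and 1699 and 1707 CPM alone, and the CD8 T cell markers to 8824 and 8648 CPM co-cultured and 6991 and 7181 CPM alone. Most of that ILC2 marker sum came from genes that T cells also express, such as Il2ra, Id2 and Il7r. By call, 6 of these 17 markers were higher in co-cultured CD8 T cells and 8 lower. Among the lower ones, Il5 had 0.665 and 0.686 CPM co-cultured, against 10.5 and 9.86 CPM alone. Ccr8 had 10 and 11 CPM co-cultured, against 62.1 and 60 CPM alone. Among the higher ones, Vipr2 had 2.83 and 2.18 CPM co-cultured, against 0.133 and 0.0526 CPM alone. Rora had 135 and 150 CPM co-cultured, against 43.4 and 47.3 CPM alone. Single markers of other cells went both ways in CD8 T cells. Cpa3 of mast cells had 0.0151 and 0.0298 CPM co-cultured, against 11.4 and 8.65 CPM alone. Lyz2 and Thbs1 were at under 1 CPM co-cultured, against 2.17 to 5.26 CPM alone. Higher ones included Cd68, with 31.0 and 29.4 CPM co-cultured, against 13.9 and 14.0 CPM alone. Pecam1 had 133 and 129 CPM co-cultured, against 36.0 and 38.7 CPM alone. Of the macrophage markers tested, 1 was called higher and 3 lower. Fibroblast and stroma markers had 2 calls each way, as did epithelium and endothelium markers. Handling stress genes (11 of 11) summed to 2731 and 2846 CPM in co-cultured ILC2s, against 1660 and 1650 CPM alone. In CD8 T cells they summed to 1888 and 1917 CPM co-cultured, against 1684 and 1761 CPM alone. Of the ILC2 sums, Junb made up 1740 and 1870 CPM co-cultured and 760 and 741 CPM alone. By call the stress genes went both ways, with 4 higher and 6 lower in ILC2s and 4 higher and 4 lower in CD8 T cells. The part of these markers and stress genes in the values below was not tested. In bulk samples, fewer cells of a type and less RNA per cell cannot be told apart.

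Together, the 78 genes took a smaller share of the reads after co-culture in both cell types. Their summed level was 3001 and 2900 CPM in co-cultured CD8 T cells, against 4911 and 4504 CPM in CD8 T cells alone. In ILC2s the sum was 1359 and 1551 CPM in co-cultured libraries, against 2824 and 2698 CPM in libraries labelled alone. Neither pair of groups overlapped, and the sum averaged 2950 ± 71.4 CPM co-cultured and 4708 ± 288 CPM alone in CD8 T cells, and 1455 ± 136 CPM co-cultured and 2761 ± 89.1 CPM alone in ILC2s (SD, n = 2 each). With 2 libraries against 2 an exact permutation test cannot give a p under 0.33, so no p is given for these sums.

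**Figure D1:**
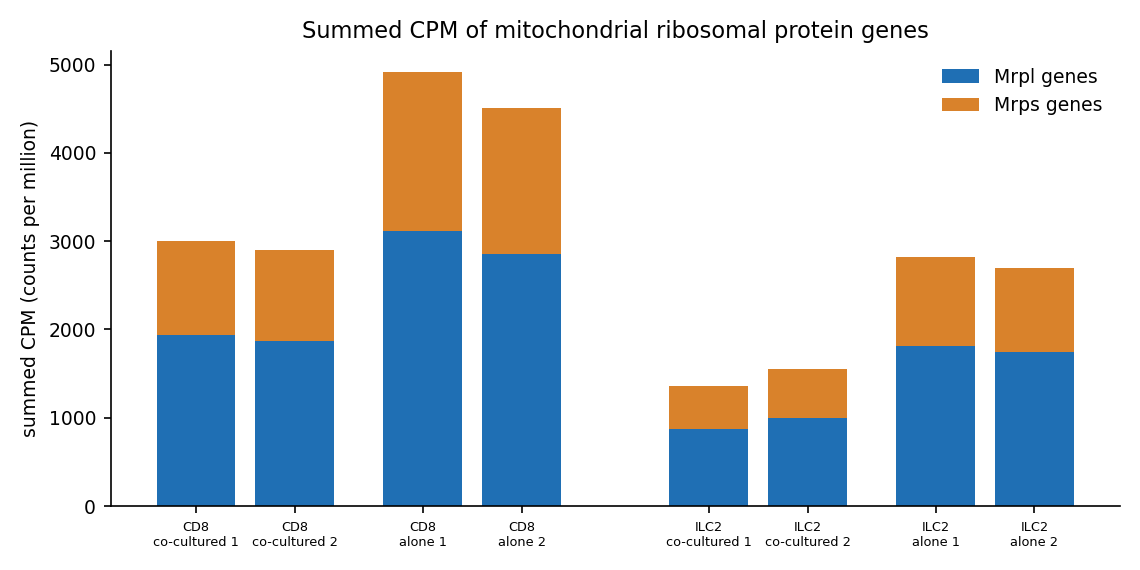
Summed CPM of the 49 Mrpl genes and the 29 Mrps genes in each of the 8 libraries, stacked, with CPM on the vertical axis starting at 0. In both cell types the co-cultured libraries are lower than the libraries labelled alone, and the split between Mrpl and Mrps is much the same in every bar.

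The balance of the large and small subunit moved by less than the summed levels. Mrpl genes summed to 1.83 and 1.80 times the Mrps genes in co-cultured CD8 T cells, against 1.73 and 1.73 times in CD8 T cells alone. The ratio was 1.80 and 1.79 in co-cultured ILC2s, against 1.79 and 1.82 in ILC2s labelled alone. By symbol, the CD8 ratios did not overlap between the groups, whereas the ILC2 ratios did. Counted by place in the ribosome instead of by symbol, with Mrps30 and Mrps18a moved to the large subunit and Mrps36 left out, the ratio was 2.29 and 2.22 co-cultured, against 2.09 and 2.09 alone, in CD8 T cells. In ILC2s it was 2.33 and 2.24 co-cultured, against 2.15 and 2.18 alone, so that counted by place neither cell type overlapped. The group means by place were 2.26 co-cultured and 2.09 alone in CD8 T cells, and 2.28 co-cultured and 2.16 alone in ILC2s.

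Because many members moved together, the start of each gene was read for sequence motifs. RefSeq promoter windows of the GRCm38.p6 assembly, 250 bases before to 50 bases after the annotated start, were available for 69 of the 78 genes. The 5 windows below belong to Mrpl20, Mrpl36 and Mrps18b, which were among the 8 largest falls in both cell types, to Mrps2, the largest fall in ILC2s, and to Mrpl9, the member that rose in ILC2s. Mrps28, also among the 8 largest falls in both cell types, had no window. Windows of other members with large falls, such as Mrps10 and Mrpl2, are not shown. They are written 5′ to 3′ on the gene's strand, with matches to the searched motifs in capitals. They lie at chr4:155802628-155802927 on the plus strand (Mrpl20), chr13:73330759-73331058 on the plus strand (Mrpl36), chr17:35916391-35916690 on the minus strand (Mrps18b), chr2:28467816-28468115 on the plus strand (Mrps2) and chr3:94443086-94443385 on the plus strand (Mrpl9).
Mrpl20: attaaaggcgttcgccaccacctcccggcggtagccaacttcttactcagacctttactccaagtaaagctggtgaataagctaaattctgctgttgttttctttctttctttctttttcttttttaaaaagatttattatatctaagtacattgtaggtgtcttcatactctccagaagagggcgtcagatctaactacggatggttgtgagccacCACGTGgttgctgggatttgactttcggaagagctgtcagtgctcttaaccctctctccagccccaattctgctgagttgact
Mrpl36: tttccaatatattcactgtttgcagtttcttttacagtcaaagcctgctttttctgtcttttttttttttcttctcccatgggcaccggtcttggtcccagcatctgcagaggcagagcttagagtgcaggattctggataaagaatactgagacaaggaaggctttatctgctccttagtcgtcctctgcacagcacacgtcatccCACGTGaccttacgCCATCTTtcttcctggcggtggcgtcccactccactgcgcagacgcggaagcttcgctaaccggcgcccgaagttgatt
Mrps18b: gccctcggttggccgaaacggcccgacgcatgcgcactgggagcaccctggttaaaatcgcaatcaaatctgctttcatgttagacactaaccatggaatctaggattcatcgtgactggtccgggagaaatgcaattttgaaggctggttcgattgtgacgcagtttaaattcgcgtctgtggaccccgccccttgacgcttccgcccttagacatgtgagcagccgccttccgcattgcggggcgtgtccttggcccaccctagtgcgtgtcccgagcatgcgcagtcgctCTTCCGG
Mrps2: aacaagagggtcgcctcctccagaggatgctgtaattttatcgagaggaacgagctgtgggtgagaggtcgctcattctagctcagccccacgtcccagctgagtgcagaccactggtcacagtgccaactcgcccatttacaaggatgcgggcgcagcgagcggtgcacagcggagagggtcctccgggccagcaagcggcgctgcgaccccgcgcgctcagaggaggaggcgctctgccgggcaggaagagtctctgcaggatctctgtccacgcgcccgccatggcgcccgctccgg
Mrpl9: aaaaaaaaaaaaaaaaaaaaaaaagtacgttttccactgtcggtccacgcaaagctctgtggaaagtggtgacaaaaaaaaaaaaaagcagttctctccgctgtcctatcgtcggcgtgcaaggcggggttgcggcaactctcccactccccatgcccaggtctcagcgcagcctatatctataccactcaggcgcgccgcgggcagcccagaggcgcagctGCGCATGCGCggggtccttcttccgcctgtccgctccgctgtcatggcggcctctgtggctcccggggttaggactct
The Mrpl20 window held an E-box, CACGTG, the core of the site bound by Myc with Max, and the Mrpl36 window held an E-box and a YY1 core on the other strand. The Mrps18b window ended in an ETS core on the other strand, the Mrps2 window held none of the motifs, and the Mrpl9 window held an NRF1 site.

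Over the 69 windows, both strands were searched for the NRF1 site (GCGC, any base, then TGCGC), the ETS core CCGGAAG (the kind bound by GABP), the YY1 core AAGATGG and the E-box. NRF1, GABP and YY1 are known as activators of nuclear genes for mitochondrial proteins. The NRF1 site was in 13 windows (18.8%, against 10.4% of the 10576 promoters of genes tested in both cell types). The ETS core was in 25 windows (36.2% against 18.4%), the YY1 core in 13 (18.8% against 7.37%) and the E-box in 5 (7.25% against 10%). Over all 27025 promoters the shares were 4.78%, 9.12%, 6.48% and 7.24% for the NRF1 site, the ETS core, the YY1 core and the E-box in that order, and no matches of 2 kinds overlapped in a member. The median log2 change (co-cultured minus alone) of members with the NRF1 site was -0.56 in CD8 T cells, against -0.88 in those without it, and -0.25 against -0.87 in ILC2s. For the 5 members with an E-box (Mrpl2, Mrpl20, Mrpl36, Mrpl37 and Mrps18c) it was -1.36, against -0.81 in those without it, in CD8 T cells and -1.58 against -0.82 in ILC2s. Members with and without the ETS core had medians of -0.84 and -0.83 in CD8 T cells and -0.86 and -0.83 in ILC2s. Those with and without the YY1 core had medians of -0.94 and -0.81 in CD8 T cells and -0.85 and -0.86 in ILC2s. These are descriptions of letters in a window, without a test.

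In CD8 T cells nearly the whole family fell on co-culture. Of the 78 genes, 76 were lower and 0 higher at an adjusted p under 0.05 (edgeR quasi-likelihood test, Benjamini-Hochberg over 15948 genes), where 30.7% of all genes tested were lower, 30.2% higher and 60.9% either. At an unadjusted p under 0.05 and with DESeq2 and limma-voom no member was higher either. The fall was 2-fold or more in 24 members (10.7% of all genes). The median log2 change was -0.83 over the members (range -1.78 to -0.02) and -0.01 over all genes. By subunit, 47 of 49 Mrpl genes were lower, with a median of -0.84, and 29 of 29 Mrps genes, with a median of -0.83. In CPM, 76 members had both co-cultured libraries below both libraries alone (37.1% of all genes), Mrpl4 had both above (44.1% of all genes) and Mrpl10 overlapped.

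The largest falls in CD8 T cells were in genes of both subunits. Mrpl20, which encodes the counterpart of bacterial L20, a protein of early large subunit assembly in bacteria, had 15.5 and 13.5 CPM in co-cultured CD8 T cells, against 51.4 and 42.9 CPM alone. Its log2 change was -1.78 ± 0.11 (SE, edgeR adjusted p = 3.5e-08). Mrps28, a small subunit protein, had 9.72 and 9.12 CPM co-cultured, against 28.9 and 26.7 CPM alone, a change of -1.64. In both genes the co-cultured libraries lay close together and far below the libraries alone.

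Mrps18b, one of a trio of genes related to bacterial S18, had 23.7 and 24.8 CPM in co-cultured CD8 T cells, against 74.3 and 62.4 CPM alone, a log2 change of -1.57. The other two of the trio fell less: Mrps18c, the small subunit member nearest to the bacterial protein, changed by -1.25 and Mrps18a, whose product sits in the large subunit, by -1.21. Part of Mrps18b's exons (30.5% of their bases) overlap the antisense gene Gm16279, whose reads cannot be told apart without the strand setting. Next in size were Mrpl2 at -1.42, from the core of the large subunit near the peptide-bond site, Mrpl36 at -1.36, Mrpl47 at -1.32, Mrpl57 at -1.27 and Mrps14 at -1.26. Mrpl36, one of the smallest proteins of the large subunit, had 31.1 and 28.4 CPM co-cultured, against 75.5 and 69.0 CPM alone.

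Mrpl10 and Mrpl4 did not pass the test in CD8 T cells. Mrpl4, which encodes a protein lining the exit tunnel, had 139 and 134 CPM in co-cultured CD8 T cells, against 133 and 129 CPM alone (log2 change -0.02 ± 0.069, edgeR adjusted p = 0.83). Mrpl10, which holds the stalk of the large subunit, had 105 and 106 CPM co-cultured, against 103 and 108 CPM alone (-0.08 ± 0.072, edgeR adjusted p = 0.34). The stalk protein that Mrpl10 carries, Mrpl12, did fall: it had 57.4 and 50.02 CPM co-cultured, against 104 and 89.9 CPM alone, a change of -0.93. The smallest falls that passed were Mrpl9 (-0.27), Mrps30 (-0.28), Mrpl44 (-0.35), Mrps31 and Mrpl58 (both -0.40). Mrpl58 encodes a peptide-release factor built into the large subunit. The Mrpl9 call was lost without the first CD8 library alone (adjusted p = 0.11, edgeR) or the first co-cultured one (0.061), and with library totals (0.064), and those of Mrpl14, Mrpl58 and Mrps30 without the second co-cultured one (0.053, 0.088 and 0.079).

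**Figure D2:**
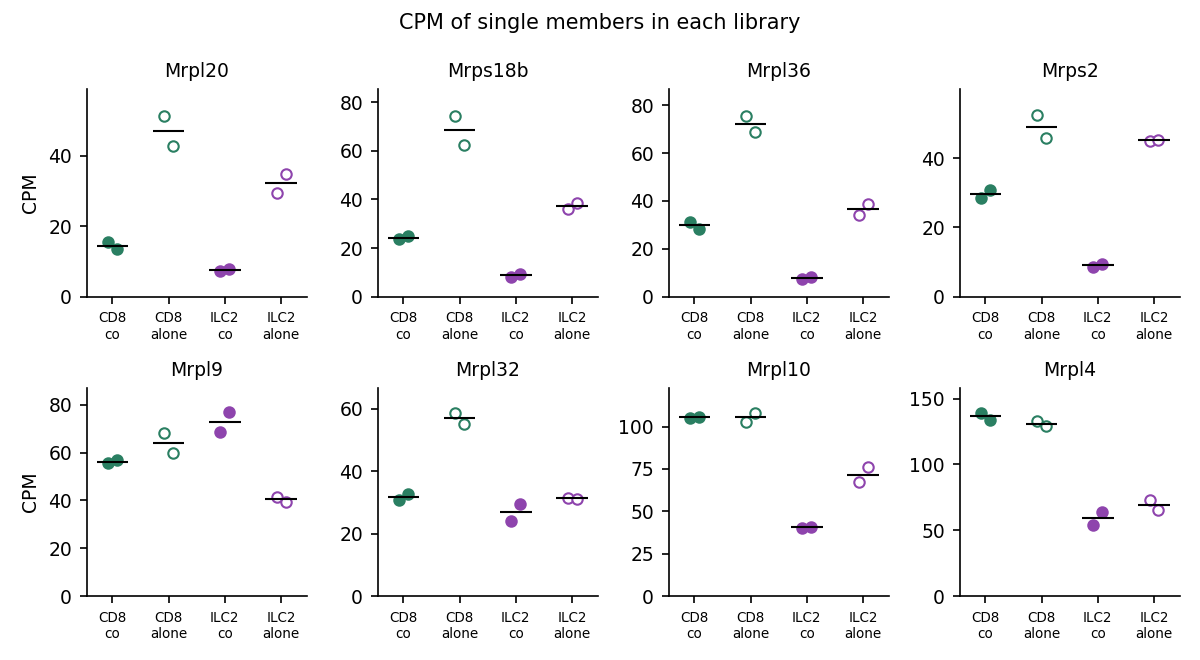
CPM of 8 members in each library, with 2 points per group (filled for co-cultured, open for alone), the mean as a line and CPM from 0 on each vertical axis. Mrpl20, Mrps18b, Mrpl36 and Mrps2 are lower in co-cultured libraries of both cell types, Mrpl9 is higher in co-cultured ILC2s, and Mrpl4 and Mrpl10 are level in CD8 T cells.

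In ILC2s most members were again lower after co-culture. Of the 78 genes, 59 were lower and 1 higher (edgeR, adjusted p under 0.05 over 16739 genes), where 34.4% of all genes tested were lower, 31.8% higher and 66.3% either, and 18 members did not pass. The fall was 2-fold or more in 32 members (22.7% of all genes). The median log2 change was -0.85 over the members (range -2.10 to 1.06) and -0.01 over all genes, and the standard deviation among members was 0.66, where it was 0.34 in CD8 T cells. Over all genes tested the standard deviation was also larger in ILC2s, at 1.67, than in CD8 T cells, at 0.93. Of the Mrpl genes 39 of 49 were lower and 1 higher, with a median of -0.86, and of the Mrps genes 20 of 29 were lower, with a median of -0.84. In CPM, 74 members had both co-cultured libraries below both libraries alone (49.6% of all genes), Mrpl9 had both above (33.8% of all genes), and Mrpl14, Mrpl30 and Mrps34 overlapped. CPM ratios and fitted log2 changes differ somewhat because the fit also applies scaling factors, which were 0.90 and 0.96 for co-cultured and 1.08 and 1.07 for alone ILC2 libraries.

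The fall was largest in Mrps2, which encodes a small subunit protein needed for assembly. Mrps2 had 8.64 and 9.57 CPM in co-cultured ILC2s, against 45 and 45.2 CPM in ILC2s labelled alone, which gave a log2 change of -2.10 ± 0.14 (SE) with an edgeR adjusted p of 1.2e-07. Mrpl36 had 7.63 and 8.07 CPM co-cultured, against 34.0 and 38.9 CPM alone, a change of -2.0. Mrps10, a protein of the head of the small subunit, had 11.4 and 11 CPM co-cultured, against 48.5 and 50.4 CPM alone, a change of -1.93. In all 3 genes the libraries within each group lay close together and the groups far apart.

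Of the other members with the largest falls in ILC2s, Mrpl20 changed by -1.87, Mrps18b by -1.85, Mrpl17 by -1.83, Mrps28 by -1.81 and Mrpl13 by -1.77. Mrpl17, from the exit side of the large subunit, had 11.1 and 14.6 CPM in co-cultured ILC2s, against 51.5 and 54.1 CPM alone. Mrpl20, Mrpl36, Mrps18b and Mrps28, all among the 8 members with the largest falls in ILC2s, were also among the 8 with the largest falls in CD8 T cells.

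Mrpl9 was the exception in ILC2s. Its product is the counterpart of bacterial L9, an elongated protein on the surface of the large subunit. It had 68.6 and 77.2 CPM in co-cultured ILC2s, against 41.6 and 39.4 CPM alone, which gave a log2 change of 1.06 ± 0.12 (SE) with an edgeR adjusted p of 1.3e-05. That change became -0.43 when libraries were scaled to the ILC2 marker genes, where the median of all genes was -1.50. That scaling lowers every gene by construction, so a rise smaller than the shift must turn negative. Values under it, here and below, are to be read against that median. The antisense gene Oaz3 overlaps 5.81% of its exon bases. In CD8 T cells the same gene had 55.6 and 56.8 CPM co-cultured, against 68.4 and 60.0 CPM alone. It was called lower in CD8 T cells, with the exceptions above, and higher in ILC2s, as were 4.54% of the genes tested in both.

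The 18 members that did not pass in ILC2s ran from -0.30 (Mrps23) to 0.24 (Mrps34). Among them was Mrpl4, with 53.9 and 64.2 CPM co-cultured, against 72.8 and 65.6 CPM alone, so that it passed in neither cell type. Mrps30 had 59.9 and 59.2 CPM co-cultured, against 65.4 and 62 CPM alone; its fitted change of 0.12 turned to -0.10 with library totals as the only scaling and to -1.37 under the marker scaling. Mrpl45, which encodes the protein that tethers the large subunit to the inner membrane, had 58.8 and 65.5 CPM co-cultured, against 69.6 and 65.6 CPM alone, a change of 0.09. Mrpl10 did pass here, with 40.4 and 40.9 CPM co-cultured, against 67.1 and 76.1 CPM alone, a change of -0.60.

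**Figure D3:**
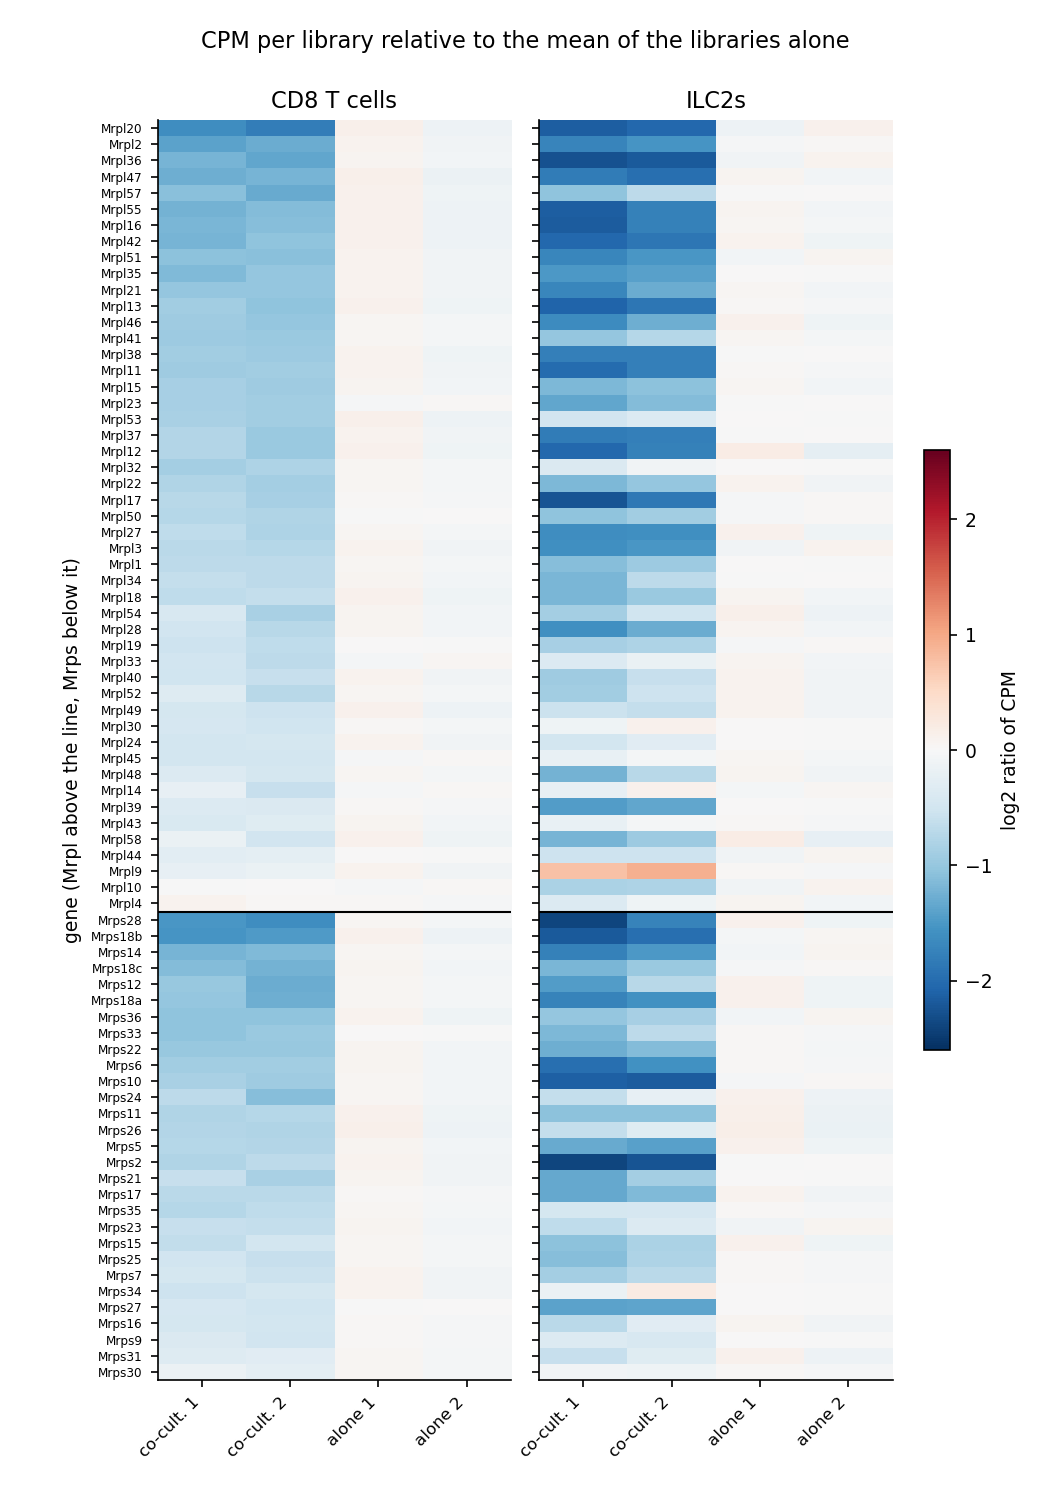
Log2 ratio of each member's CPM in a library to the mean of the 2 libraries alone of that cell type, for the 78 genes (rows, Mrpl above the line and Mrps below, ordered by change in CD8 T cells) and 4 libraries per cell type. Blue marks lower and red higher CPM; nearly all co-cultured cells of the map are blue, and Mrpl9 in ILC2s is the clearest red row.

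The cell types shared most of the calls. Of the members, 58 were called lower in both (17.8% of the 14835 genes tested in both), and 17 of them fell 2-fold or more in both. Over all genes, 10.7% fell 2-fold or more in CD8 T cells and 22.7% in ILC2s, and the share in both was not counted. A further 17 members were called lower in CD8 T cells and did not pass in ILC2s, and this share was not counted over all genes. Such a contrast of calls does not show a difference between the cell types. Across the 78 genes, Pearson's r between the log2 changes in CD8 T cells and in ILC2s was 0.68 and Spearman's rho 0.69, against 0.27 and 0.35 over all genes tested in both. These are correlations across genes, which share libraries and co-cultures and are not independent replicates, so no p is given.

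**Figure D4:**
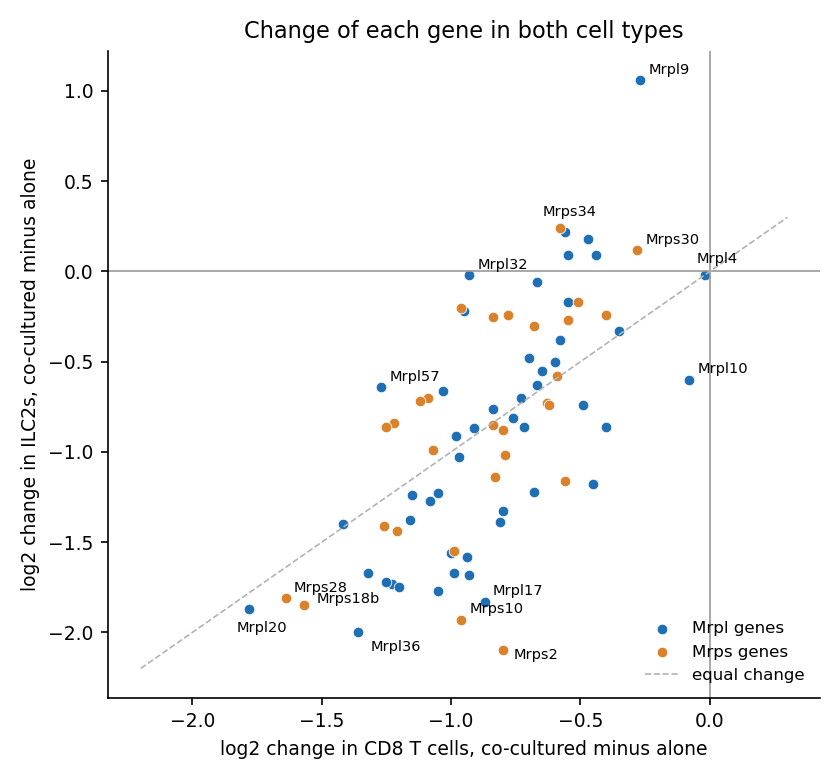
Log2 change (co-cultured minus alone) of each of the 78 genes in CD8 T cells on the horizontal axis and in ILC2s on the vertical axis, coloured by Mrpl and Mrps. Most points lie in the lower left, with Mrpl20, Mrps28 and Mrps18b low on both axes, Mrps2 below the dashed line of equal change and Mrpl9 above 0 in ILC2s.

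The size of the change differed between the cell types for 34 members (53.6% of all genes). In a model over all 8 libraries and 15532 genes, the interaction of cell type and culture was called lower in ILC2s for 23 members (32.6% of all genes) and higher for 11 (21% of all genes). The median interaction was -0.19 over the members and -0.12 over all genes, a shift that moves with the scaling: 19 lower and 14 higher with DESeq2's size factors, and 35 lower and 5 higher with library totals. The members whose change was most negative in ILC2s relative to CD8 T cells were Mrps2 (-1.45 ± 0.16), Mrps10 (-1.12), Mrpl17 (-1.11), Mrpl12 (-0.91), Mrpl39 (-0.89) and Mrpl13 (-0.87). For Mrps2 the log2 change was -2.10 in ILC2s and -0.80 in CD8 T cells in the fits per cell type. Those fits have their own filter and scaling, so the difference of their changes need not equal the interaction.

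At the other end were Mrpl9 (1.17 ± 0.14), Mrpl32 (0.76), Mrps34 (0.66), Mrpl30 (0.62), Mrps24 (0.61) and Mrpl53 (0.57). Mrpl32, a large subunit protein that is trimmed by a protease of the inner membrane before it can be assembled, had 30.7 and 32.5 CPM in co-cultured CD8 T cells, against 58.7 and 55.1 CPM alone. In ILC2s it had 24.0 and 29.6 CPM co-cultured, against 31.5 and 31.2 CPM alone. Mrps34 shares 37.0% of its exon bases with Nme3 and 63.4% with the antisense gene Mapk8ip3, and Mrpl53 shares 88% with Gm42688, so their values are uncertain. The count of 11 fell to 6 without the first CD8 library alone or the second ILC2 library alone, to 5 without the second co-cultured CD8 library and to 7 without the second co-cultured ILC2 library. The calls of Mrpl53 and Mrps24 were among those lost, and both were also lost with library totals.

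Members of bacterial descent and members specific to mitochondria moved in the same direction. The 46 genes classed as having a bacterial counterpart had a median log2 change of -0.86 in CD8 T cells and -0.97 in ILC2s. For the 31 classed as specific to mitochondria it was -0.70 and -0.66. Mrps18a and Mrps18b were counted in the mitochondrial class, although they are related to bacterial S18, and Mrps18c in the bacterial class. Mrps36, the gene outside the ribosome, had 14.9 and 14.9 CPM in co-cultured CD8 T cells, against 32.8 and 28.4 CPM alone, and 7.80 and 8.59 CPM in co-cultured ILC2s, against 14.9 and 16.3 CPM alone. Its log2 change was -1.12 in CD8 T cells and -0.72 in ILC2s, within the range of the ribosomal members.

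Levels per kilobase of transcript differed widely between members. In co-cultured CD8 T cells Mrpl4 was highest at 106 CPM per kilobase, followed by Mrpl18 at 87.1 and Mrps15 at 68.8, and Mrpl47 was lowest at 2.83. In CD8 T cells alone the order began with Mrpl18 at 136, Mrpl42 at 116 and Mrpl36 at 106, and Mrpl47 was again lowest at 6.70. In co-cultured ILC2s Mrpl30 (54.6), Mrpl33 (53.9) and Mrpl4 (45.8) led, and in ILC2s labelled alone Mrpl18 (75.5), Mrpl42 (67.0) and Mrpl33 (64.9), with Mrpl47 lowest in both (0.927 and 3.43 CPM per kilobase). Mrpl4, which passed in neither cell type, thus stood first after co-culture in CD8 T cells and among the first in ILC2s. Spearman's rho between the level alone per kilobase and the log2 change was 0.0 in CD8 T cells and -0.03 in ILC2s across the 78 genes.

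Transcript length moved with the changes. Over all genes with a length, Spearman's rho between length and log2 change was 0.33 in CD8 T cells (n = 12243) and 0.16 in ILC2s (n = 13053), so that shorter transcripts tended to be lower after co-culture. The members' median length was 1251 bases, against 2751 over all genes tested, and among the members rho was 0.21 and 0.02 in CD8 T cells and ILC2s. The part of length in the members' fall was not tested.

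For 18 members a protein-coding gene on the other strand starts within 1000 bases upstream of the member's start. Pairs whose starts overlap, such as Mrpl46 and Mrps11, were not counted. Of these 18 partners, 5 were lower, 6 higher and 7 did not pass in CD8 T cells, shares near those of all genes (30.7% lower and 30.2% higher), with a median of 0.06, while 17 of the 18 members beside them were lower. In ILC2s 9 of 17 tested partners were lower, 5 higher and 3 did not pass, with a median of -0.40, against 15 lower among the 18 members (34.4% of all genes were lower and 31.8% higher). Mrpl2 changed by -1.42 in CD8 T cells and by -1.40 in ILC2s, whereas its partner Klc4, a kinesin light chain whose start is 207 bases away, changed by 1.12 and 1.38. Mrpl32 and its partner Psma2, a proteasome subunit, changed by -0.93 and -1.09 in CD8 T cells and by -0.02 and -1.23 in ILC2s. These pairs were chosen after their values were seen.

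Subunits that carry other symbols were read beside the family. Dap3, a GTP-binding protein of the small subunit, Ptcd3, Chchd1, Aurkaip1 and Gadd45gip1 were all lower in CD8 T cells, from -0.19 (Dap3) to -1.25 (Chchd1). Over all genes, 30.7% were lower in CD8 T cells and 34.4% in ILC2s. The Dap3 call was lost with library totals (-0.11), in the fit over all 8 libraries and without either co-cultured library. In ILC2s 3 of the 5 were lower, Ptcd3 (-1.25), Chchd1 (-0.78) and Aurkaip1 (-0.67), and Dap3 (-0.20) and Gadd45gip1 (0.30) did not pass. In ILC2s Dap3 was called lower with library totals (-0.41), in the fit over all 8 libraries (-0.35) and under the marker scaling (-1.69), and Gadd45gip1 was called higher with DESeq2 (0.33), with its size factors in edgeR (0.33) and without the first library alone (0.45).

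Reads counted for the rRNAs of the mitoribosome took a larger share of the library in co-cultured ILC2s. There mt-Rnr1, the small subunit rRNA, had 36.2 and 48.4 CPM co-cultured, against 16.2 and 29.7 CPM alone (log2 change 1.09, edgeR adjusted p = 0.0017), and mt-Rnr2, the large subunit rRNA, had 387 and 521 CPM co-cultured, against 225 and 341 CPM alone (0.89, edgeR adjusted p = 0.0013). Both values turned negative (-0.39 for mt-Rnr1 and -0.60 for mt-Rnr2) when libraries were scaled to the ILC2 marker genes, where the median of all genes was -1.50. For CD8 T cells, mt-Rnr1 did not pass (0.16), and mt-Rnr2 had 283 and 304 CPM co-cultured, against 406 and 288 CPM alone (-0.32, edgeR adjusted p = 0.032). That last call was lost without the first library alone (-0.06) or the first co-cultured one (-0.26), with library totals (-0.24), without the low-count filter (-0.31), with DESeq2 (-0.31) and in the fit over all 8 libraries (-0.32). With library totals mt-Rnr1 was called higher in CD8 T cells (0.24). Of 15 mitochondrially encoded genes these 2 were in the tables, and nuclear copies of mitochondrial DNA could share their reads.

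The counts of the lists that follow stand against 30.7% lower and 30.2% higher over all genes in CD8 T cells, and 34.4% lower and 31.8% higher in ILC2s. Of 26 genes of mitoribosome assembly and rRNA modification, 16 were lower and 3 higher (Mrm1, Dhx30 and Rpusd4) in CD8 T cells, and 16 lower and 7 higher in ILC2s. The deepest falls in ILC2s were in Fastkd2, an RNA-binding protein of large subunit assembly, with 2.87 and 3.56 CPM co-cultured, against 32.9 and 33.0 CPM alone (-3.15), and in Mrm3, a methyltransferase of the large subunit rRNA, with 0.763 and 1.79 CPM co-cultured, against 11.4 and 11.4 CPM alone (-2.95). Fastkd2 and Mrm3 changed less in CD8 T cells, Fastkd2 by -0.72 and Mrm3 by -1.16. Rpusd4, a pseudouridine synthase, was higher in both, by 0.23 in CD8 T cells and 1.13 in ILC2s, the latter turning to -0.37 under the marker scaling.

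Of the 19 tested translation factors and mRNA-handling genes, 10 were lower and 2 higher (Gfm2 and Ptcd1) in CD8 T cells, and 10 lower and 1 higher (Guf1) in ILC2s. Tufm, the elongation factor that brings tRNA to the ribosome, changed by -0.41 in CD8 T cells and -0.49 in ILC2s, and Tsfm, its exchange factor, by -1.10 and -1.23. Lrpprc, which stabilises mitochondrial mRNAs, had 10.5 and 7.45 CPM in co-cultured ILC2s, against 50.8 and 40.7 CPM alone (-2.13), and changed by -0.30 in CD8 T cells. Its partner Slirp changed by -1.28 in CD8 T cells and did not pass in ILC2s (-0.06).

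Of 14 genes of mitochondrial DNA maintenance and transcription, 7 were lower and 3 higher (Polrmt, Polg and Polg2) in CD8 T cells, and 8 lower and 2 higher (Polg and Polg2) in ILC2s. Top1mt, the mitochondrial topoisomerase, was lower in both (-1.24 and -1.57). Polg, the mitochondrial DNA polymerase, was higher in both (1.17 and 0.84, the ILC2 value turning to -0.65 under the marker scaling).

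Import genes fell with the family. Of 35, 30 were lower and 0 higher in CD8 T cells (edgeR, 0 also at an unadjusted p under 0.05 and with limma-voom and DESeq2, but 2 with library totals; median -0.98), and 29 lower and 1 higher (Timm29) in ILC2s (median -0.95). Timm10, a chaperone of the intermembrane space, had 3.02 and 2.67 CPM in co-cultured CD8 T cells, against 12.4 and 9.53 CPM alone (-2.02), and 0.743 and 0.853 CPM in co-cultured ILC2s, against 7.26 and 6.28 CPM alone (-2.87). Timm8a1 changed by -1.72 in CD8 T cells and -2.65 in ILC2s, and Hspe1, a matrix co-chaperone, by -2.04 and -2.21. Nuclear-encoded respiratory chain and ATP synthase genes were lower in 73 of 77 cases and higher in 1 in CD8 T cells (median -0.89), and lower in 59 of 77 and higher in 3 in ILC2s (median -0.80).

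Cytosolic ribosomal protein genes, which had no common fall in ILC2s, stood apart from the mitochondrial ones there by count. Of 81 such genes, 78 were lower in CD8 T cells (median -0.75), close to the -0.83 of the mitochondrial family. In ILC2s 39 of 79 tested were higher and 8 lower (median 0.31, or -1.18 under the marker scaling, where the median of all genes was -1.50). In the interaction model 71 of 81 cytosolic genes were called higher in ILC2s (median 0.96), where 21% of all genes were. Of the 78 mitochondrial genes, 11 were called higher and 23 lower (32.6% of all genes were lower).

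Regulators of mitochondrial gene expression showed no common direction, with shares called no higher than over all genes in CD8 T cells. Of 13, 3 were lower (Pprc1, Gabpb1 and Gabpb2) and 3 higher (Ppargc1b, Esrra and Max) in CD8 T cells, and 2 lower (Pprc1 and Myc) and 5 higher (Ppargc1b, Nrf1, Esrra, Yy1 and Mycn) in ILC2s. Myc, which drives ribosome and mitochondrial genes in growing lymphocytes, had 94.1 and 90.1 CPM in co-cultured ILC2s, against 368 and 356 CPM alone (-1.76), and in CD8 T cells 789 and 834 CPM co-cultured, against 608 and 736 CPM alone (0.19, which did not pass). The CD8 value of Myc was called higher without the second library alone (0.35), with library totals (0.27) and with the replicate block (0.20). Mycn had 45.1 and 50.9 CPM in co-cultured ILC2s, against 6.17 and 5.49 CPM alone (3.25). Nrf1 was higher in ILC2s (0.80, or -0.69 under the marker scaling) and did not pass in CD8 T cells (-0.14). The coactivator Pprc1 was lower in both cell types (-0.53 in CD8 T cells and -0.72 in ILC2s), and Ppargc1b was higher in both (1.07 and 0.48), its ILC2 call being lost without 3 of the 4 libraries in turn and turning to -1.02 under the marker scaling.

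**Figure D5:**
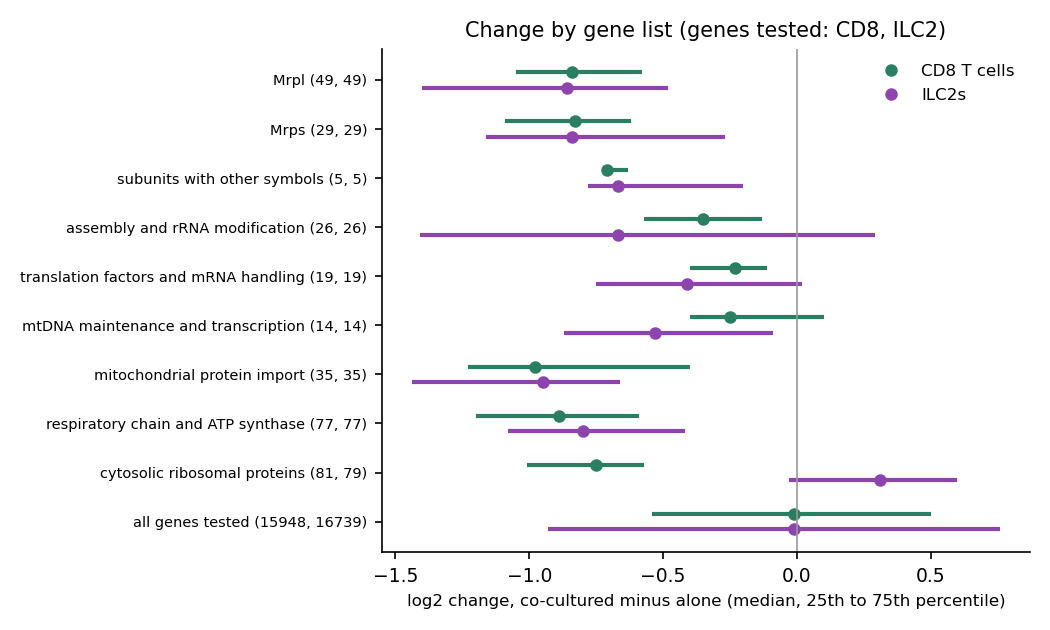
Median log2 change (co-cultured minus alone, points) with the 25th to 75th percentile (lines) for the Mrpl and Mrps genes, the other lists and all genes tested, in CD8 T cells and ILC2s; the numbers of genes tested stand beside each name. Mrpl and Mrps medians lie between -0.83 and -0.86 in both cell types, and the cytosolic ribosomal proteins lie at -0.75 in CD8 T cells and 0.31 in ILC2s.

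Shared reads touched a minority of the members. By GENCODE M21, 25 members share at least 5% of their exon bases with another gene, 21 with an antisense and 5 with a same-strand gene, and 3 have named pseudogenes. Among the largest shares were Mrps25 with Nr2c2 (69.8%), Mrpl19 with Gcfc2 (36.0%) and Mrpl43 with Twnk (33.4%). Of the 51 members free of both, 50 were lower in CD8 T cells (median -0.84), where 30.7% of all genes were lower. In ILC2s 40 were lower and 0 higher (median -0.88), where 34.4% of all genes were lower and 31.8% higher. None of the 51 was higher in ILC2s at an unadjusted p under 0.05 in edgeR, DESeq2 or limma-voom either.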

How the data were processed

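The deposited data are whole-number counts, in 1 table per cell type, from SMART-Seq v4 libraries of Trizol-extracted RNA per the labels' protocols. StringTie 2.1.3b, SAMtools 1.9, HISAT2 2.1.0, Trimmomatic 0.38 and the build mm10 are named in the submitters' processing notes. Not given in the sources used here are their roles, the annotation, the strand setting and filters. No count is 0, so a gene with 0 reads in any library of a table is not in it.

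Counts were tested per cell type by the quasi-likelihood test of edgeR 4.0.16 under R 4.3.3, after filterByExpr and TMM scaling, at a Benjamini-Hochberg adjusted p under 0.05 over all genes tested, and as an interaction over all 8 libraries. CPM are counts divided by the library total and multiplied by 1e6. Log2 changes are co-cultured minus alone, with SE from the F statistic. Residual degrees of freedom were 2 in each cell type and 4 for the interaction, to which edgeR added prior ones of 10.4 (CD8), 9.2 (ILC2) and 11.5 (interaction), so p-values rest largely on the spread of other genes. The code was tested on simulated data. Alternatives were DESeq2 1.42.0, limma 3.58.1 voom, other scalings and filters, a replicate block and left-out libraries. Those for pathway genes were added after seeing the data. Replicate counts differed beyond sampling noise, with a chi-square per gene of 13.9 to 28.75. Same-numbered deviations correlated at 0.048 in CD8 T cells and 0.127 in ILC2s, and nothing in the labels pairs them. Positions, overlaps and lengths (shortest principal protein-coding transcript) are from GENCODE M21 (GRCm38) and promoters from RefSeq (GRCm38.p6). Summaries used Python 3.11.15, pandas and matplotlib.

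Members and gene lists were chosen with earlier results of these data known. Members named are the 8 called with the highest and lowest change per cell type, the 6 at each end of the interaction, the 3 highest and lowest per kilobase, and a few of special place or function. Pathway genes named are at most 2 called at each end of a list, plus known regulators and the subunits with other symbols. Other names were chosen after their values were seen.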

Additional observations from a re-analysis of the deposited data

Results flagged for a closer look

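The response to co-culture differed between the cell types for 34 members by the interaction test over all 8 libraries (edgeR, adjusted p under 0.05), a share below the 53.6% called over all genes tested. The values here are interaction estimates of that joint fit, which need not equal the difference of the changes fitted per cell type. The estimate, ILC2 minus CD8, was -1.45 for Mrps2, -1.12 for Mrps10, -1.11 for Mrpl17, -0.91 for Mrpl12, -0.89 for Mrpl39 and -0.87 for Mrpl13, so that these fell further in ILC2s. It was 1.17 for Mrpl9, 0.76 for Mrpl32, 0.66 for Mrps34, 0.62 for Mrpl30, 0.61 for Mrps24 and 0.57 for Mrpl53. Beside these values stand the markers of CD8 T cells, stroma, macrophages, NK cells, and granulocytes and mast cells. Their sums were higher in ILC2 libraries labelled alone than in co-cultured ones, and their part in the differences was not tested.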

How the results depend on the processing

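Called members numbered 73 to 76 in CD8 T cells, 56 to 78 in ILC2s and 26 to 40 in the interaction over all alternatives run, with leave-one-out ranges of 73 to 76, 56 to 60 and 26 to 39. Of the single values recomputed, 1050 kept direction and side of the threshold, 42 lost the call, 10 gained one and 11 reversed.

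The members' median log2 change in CD8 T cells was -0.75 with library totals (all genes 0.08) and -0.77 to -0.88 on leaving out 1 library. In ILC2s it was -1.07 with library totals (all genes -0.22), -1.01 in the fit over all 8 libraries (all genes -0.12) and -2.34 when scaled to the ILC2 marker genes (all genes -1.50), where 78 members were lower. Values in ILC2s that reversed were Mrps30 with library totals (-0.10), over all 8 libraries (-0.04) and under the marker scaling (-1.37), and under the marker scaling also Mrpl9 (-0.43), Gadd45gip1 (-1.19), Nrf1 (-0.69), Polg (-0.65), Ppargc1b (-1.02), Rpusd4 (-0.37), mt-Rnr1 (-0.39) and mt-Rnr2 (-0.60). That scaling divides by genes that were themselves higher in co-cultured libraries, which by construction lowers every other gene. Of the smallest falls in ILC2s, the calls of Mrpl44 (-0.41), Mrpl49 (-0.28), Mrpl52 (-0.41) and Mrpl54 (-0.34) were lost without the first library alone, those of Mrpl52 (-0.39) and Mrpl54 (-0.38) without the first co-cultured one, that of Mrpl44 without the second alone (-0.24) or second co-cultured one (-0.29), and that of Mrpl49 (-0.31) without the second co-cultured one. The Mrpl44 call was also lost with DESeq2 (-0.29) and with its size factors in edgeR (-0.29).

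With the replicate number as a block, 76 members were called in CD8 T cells, 61 in ILC2s (60 lower, 1 higher) and 36 in the interaction (24 lower, 12 higher). The numbers share no known source, so this fit pairs nothing. With 2 libraries per group, small changes are the least certain.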
